A study of Mus musculus with 98 samples.

Results

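The genes described here are 45 symbols of DNA replication and cell division that were listed for this comparison, 22 of replication and 23 of mitosis. They were followed in mouse blood leukocytes and spleen after burn, lipopolysaccharide (LPS) and trauma-hemorrhage. The platform's gene table named 82 of the 22626 non-control probe sets of the array for 44 of these genes, 22 of replication and 22 of mitosis, among 12393 genes in all. Ccnb1 (cyclin B1) had no probe set of that name in the table used here. Of the 44 genes, 38 passed the filter on low values in blood and 37 in spleen. Cdc6, Ccne2, Bub1, Kif20a and Cenpe passed in neither tissue, Tyms passed in spleen alone, and Cdc45 and Aurkb passed in blood alone.

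The series holds 98 one-colour arrays, 64 of blood leukocytes and 34 of spleen. Each title carries a code, x or c, which the labels do not explain, and a letter, which the labels of blood explain as E for the injury or infusion and A for sham. The blood arrays coded x number 9 for burn (5 of letter E, 4 of letter A), 10 for LPS (5 and 5) and 11 for trauma-hemorrhage (6 and 5). The blood arrays coded c number 11 for burn (6 of letter E, 5 of letter A), 12 for LPS (6 and 6) and 11 for trauma-hemorrhage (6 and 5). All spleen titles carry E, with 6, 6 and 5 arrays coded x and 5, 6 and 6 coded c in burn, LPS and trauma-hemorrhage. The burn spleen label names leukocytes from spleen, whereas the other spleen labels name the spleen. The labels give no strain, age or sampling time, and they do not state whether each array stands for its own animal. The p-values therefore cover only how far these samples vary, and that variation may be technical. LPS, a glycolipid of bacterial outer membranes, provokes inflammation, and trauma-hemorrhage adds blood loss to an injury.

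A dividing cell first loads the ring of Mcm proteins onto its origins and copies its DNA behind the sliding clamp Pcna, with nucleotides supplied by ribonucleotide reductase and related enzymes. It then enters mitosis under cyclin and Cdk1 control, aligns its chromosomes on a spindle, and exits when the anaphase-promoting complex, with Cdc20 and Ube2c, marks mitotic proteins for destruction. Replication genes are classically regulated by E2F factors. Mitosis genes are regulated through a CHR element, by the DREAM and MYB-MuvB complexes, and through CCAAT boxes. Blood leukocytes are mostly non-dividing, and the mouse spleen holds dividing lymphoid, myeloid and erythroid cells.

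The promoters of 4 members are shown because they carry these elements and belong to genes called in at least 1 set. The windows run from 250 bases before to 50 bases after the annotated start, from RefSeq on GRCm38.p6, and 39 of the 45 listed genes had an entry. The CHR letters TTTGAA, searched on both strands, stood in 13 of 20 mitosis promoters (65%) and in 3 of 19 replication promoters (15.8%), against 18.1% of the 27025 genes of the table. CCAAT, on both strands, stood in 16 of 20 mitosis promoters (80%) and 10 of 19 replication promoters (52.6%), against 37.9% of all genes. The E2F letters TTTCGCGC or TTTGGCGC stood in 1 of 20 mitosis promoters (5%) and 4 of 19 replication promoters (21.1%), against 0.833% of all genes. A match is a description of letters and not of a bound site. Capitals mark E2F letters in the first 2 sequences, and CHR and CCAAT letters in the others. Mcm7 and Ube2c were taken by rule, and Mcm6 and Mki67 after their values were seen.
Mcm7 (chr5:138171834-138172133, minus strand): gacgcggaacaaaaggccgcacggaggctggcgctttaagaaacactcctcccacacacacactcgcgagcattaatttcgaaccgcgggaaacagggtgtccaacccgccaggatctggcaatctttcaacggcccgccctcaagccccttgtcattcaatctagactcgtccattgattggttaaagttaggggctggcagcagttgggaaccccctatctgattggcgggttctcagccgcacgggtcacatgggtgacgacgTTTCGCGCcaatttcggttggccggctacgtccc
Mcm6 (chr1:128359656-128359955, minus strand): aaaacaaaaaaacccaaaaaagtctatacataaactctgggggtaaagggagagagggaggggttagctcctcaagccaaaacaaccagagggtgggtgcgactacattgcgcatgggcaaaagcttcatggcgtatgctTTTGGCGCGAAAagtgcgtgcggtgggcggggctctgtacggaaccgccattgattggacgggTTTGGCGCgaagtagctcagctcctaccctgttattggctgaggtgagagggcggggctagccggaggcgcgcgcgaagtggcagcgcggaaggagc
Ube2c (chr2:164769679-164769978, plus strand): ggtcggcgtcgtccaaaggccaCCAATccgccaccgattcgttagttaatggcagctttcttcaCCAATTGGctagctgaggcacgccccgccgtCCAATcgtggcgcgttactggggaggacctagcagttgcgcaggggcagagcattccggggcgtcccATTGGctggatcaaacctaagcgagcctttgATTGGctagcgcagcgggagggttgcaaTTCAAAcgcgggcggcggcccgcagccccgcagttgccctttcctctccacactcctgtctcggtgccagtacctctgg
Mki67 (chr7:135716330-135716629, minus strand): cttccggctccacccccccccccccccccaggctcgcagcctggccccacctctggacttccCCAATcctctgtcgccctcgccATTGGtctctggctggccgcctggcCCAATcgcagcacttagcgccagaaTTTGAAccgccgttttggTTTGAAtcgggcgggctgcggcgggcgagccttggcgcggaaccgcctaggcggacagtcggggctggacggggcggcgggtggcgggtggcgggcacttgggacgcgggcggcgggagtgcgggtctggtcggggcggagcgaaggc
The Mcm7 promoter held its E2F letters 17 bases after the start, and those of Mcm6 began at positions -110, -106 and -47 from it, the first pair overlapping on opposite strands. Ube2c held the CHR letters at position -29 with CCAAT letters on either strand upstream, and Mki67 held the CHR letters at positions -116 and -98. No binding was measured in these data.

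Levels are given as log2(intensity + 16) after quantile normalization within a tissue, and differences are x minus c on that scale with the standard error (SE) of the fit, which understates changes of dim genes. A gene was called at a limma adjusted p of at most 0.05, over all 15838 probe sets tested in a tissue. The lowest intensity differed between the 6 sets (9.68 for burn spleen, 32.5 for LPS blood), so levels are not compared between them. In burn blood, replicates 4 and 5 of code c, letter E, had the lowest means over replication members, 7.68 and 7.60 (others 7.72 to 7.94). The check for a single array far from its group, described below, flagged neither. On the array's beta-actin controls, the log2 ratio of the 3' to the 5' probe set, which tracks RNA integrity, did not overlap between codes in LPS blood (0.938 to 1.27 in x, 1.49 to 1.65 in c) and trauma-hemorrhage blood (0.970 to 1.65 in x, 1.79 to 2.28 in c).

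The share of members called was above that of all genes tested by the widest margin in burn spleen, and near or below it in the other 5 comparisons of x with c. In burn spleen 11 of 37 members were called (29.7%), 2 higher and 9 lower in x, beside a background of 17.5% of all genes tested. With all spleen groups in 1 fit this margin was gone, with 6 of 37 members called beside 17.5% of all probe sets. The counts were 7 of 38 in burn blood (3 higher, 4 lower, background 17.4%), 9 of 38 in LPS blood (3 higher, 6 lower, background 25.5%) and 18 of 38 in trauma-hemorrhage blood (4 higher, 14 lower, background 52%). They were 1 of 37 in LPS spleen (higher, background 3.73%) and 8 of 37 in trauma-hemorrhage spleen (3 higher, 5 lower, background 28.6%). No member was called in the same direction in more than 3 sets. Mcm4 was higher in 3 sets and lower in 1, Rrm2 was lower in 3, and Pcna was lower in 3 and higher in 1. Lig1, Mcm2, Prim1, Ccne1, Aurka, Kif11 and Tacc3 were tested in all 6 sets, and Aurkb, Cdc45 and Tyms in 3, and none of them was called through its representative probe set. In these bulk samples, fewer cells of a type and less RNA per cell cannot be told apart.

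**Figure D1:**
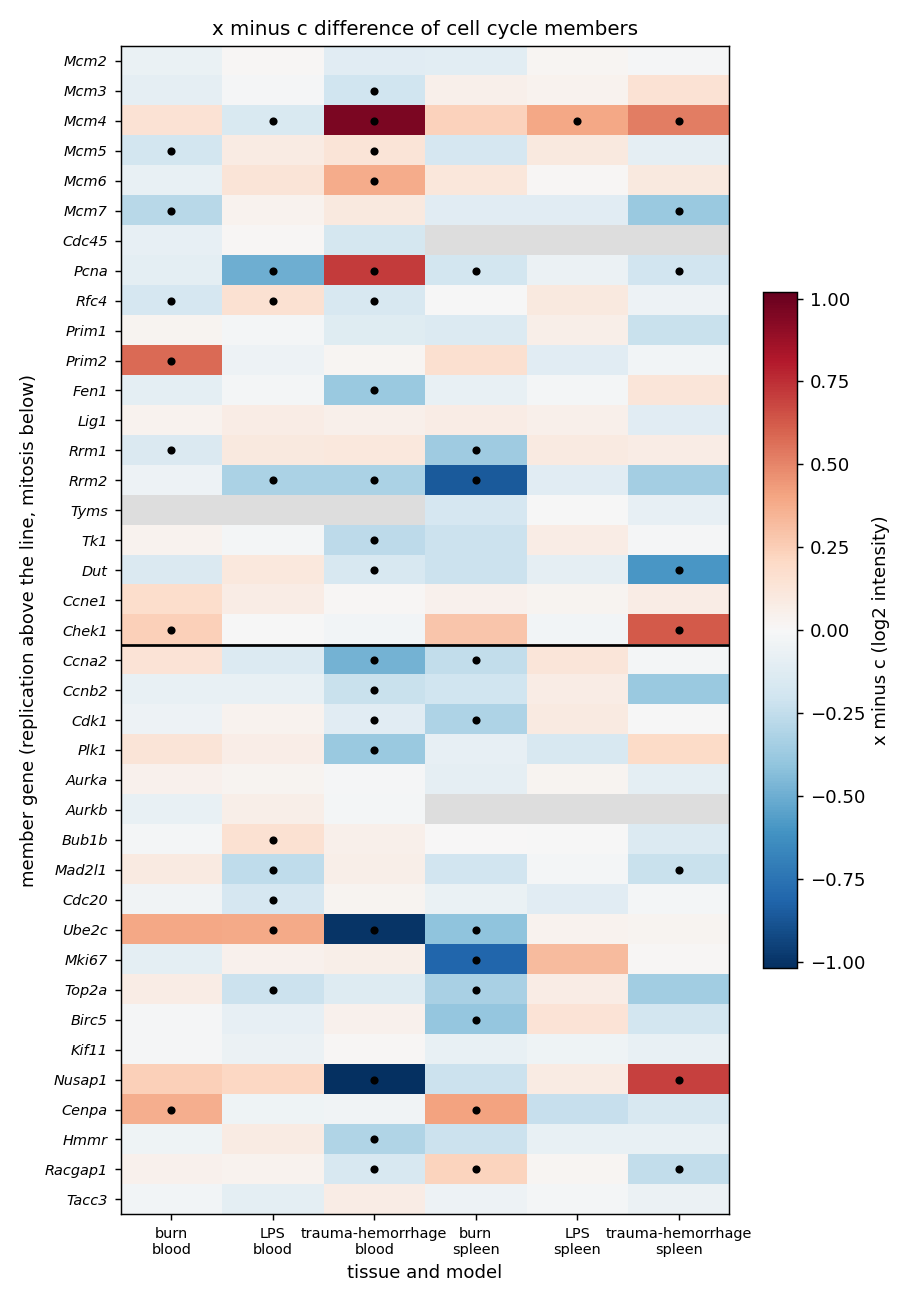
Difference x minus c (log2 intensity, colour) of each member that passed the filter, in the 6 tissue and model sets, replication genes above the line and mitosis genes below. Dots mark the calls and grey marks genes not tested; the mitosis rows of burn spleen hold 6 lower calls, and Mcm4 is the member higher in 3 sets.

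In burn spleen the mitosis calls were mainly lower in x, 6 against 2. Of 18 mitosis members tested, 6 were lower in x (Mki67, Ube2c, Birc5, Top2a, Cdk1 and Ccna2), 2 were higher (Cenpa and Racgap1) and 10 did not pass. Of 19 replication members, 3 were lower (Rrm2, Rrm1 and Pcna) and 16 did not pass. The median difference was -0.20 over the mitosis members and -0.11 over the replication members, beside -0.02 over all genes tested. Lower calls were made on 8.45% of all genes tested and higher calls on 9.1%. Of the 18 mitosis members 15 had a negative difference. The 11 calls became 6 without replicate 1 of the c arrays (beside 13.3% of all probe sets) or replicate 5 of the x arrays (15.1%). They became 7 without replicate 2 of the c arrays (15.6%) or replicate 2 or 3 of the x arrays (14.7% and 15.8%). With all spleen groups in 1 fit the lower mitosis calls numbered 2 in place of 6.

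Mki67, the proliferation antigen that coats mitotic chromosomes, measured 7.07 at the lowest, 7.32 at the median and 7.58 at the highest of the 6 x arrays, against 7.94, 7.99, 8.03, 8.23 and 8.34 in the 5 c arrays. Every x array lay below every c array. The difference was -0.81 (SE 0.10, adjusted p = 3.72e-05), 1.76-fold higher in c. Rrm2, the regulatory subunit of ribonucleotide reductase, which makes deoxynucleotides, measured 7.67, 8.06 and 8.39 (lowest, median, highest) in x arrays, against 8.72, 8.85, 8.95, 9.04 and 9.04 in c arrays. These groups did not overlap either, and the difference was -0.86 (SE 0.11, adjusted p = 4.28e-05). Its second probe set was also lower, by -0.56 (adjusted p = 0.00023). Rrm1, the catalytic subunit, measured 6.66, 7.06 and 7.25 in x arrays, against 7.22, 7.38, 7.41, 7.42 and 7.52 in c arrays, and 1 c array lay within the x range. The difference was -0.36 (SE 0.10, adjusted p = 0.015), while its second probe set differed by -0.13 and did not pass.

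Ube2c, the ubiquitin-conjugating enzyme of the anaphase-promoting complex, measured 6.03, 6.27 and 6.30 in x arrays, against 6.49, 6.54, 6.60, 6.73 and 6.76 in c arrays. The groups did not overlap, with a difference of -0.41 (SE 0.08, adjusted p = 0.00232). The mitotic kinase Cdk1 differed by -0.31 and its partner cyclin Ccna2 by -0.25, both without overlap. Birc5 (survivin, of the chromosomal passenger complex, -0.39) and Top2a (topoisomerase of chromosome untangling, -0.33) overlapped between codes. The clamp Pcna measured 10.19, 10.22 and 10.28 in x arrays, against 10.23, 10.34, 10.47, 10.49 and 10.53 in c arrays. It fell by 0.18 (SE 0.06, adjusted p = 0.0464), and it no longer passed in 10 of the 11 fits that left out 1 array.

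Cenpa, the histone variant of centromeres, went the other way, at 8.04, 8.22 and 8.52 in x arrays against 7.76, 7.76, 7.79, 7.81 and 7.94 in c arrays. All x arrays lay above all c arrays, and the difference was 0.41 (SE 0.09, adjusted p = 0.00327). Racgap1, a protein of the central spindle needed for cytokinesis, was higher by 0.23 (adjusted p = 0.0396), also without overlap, and by 0.59 at its second probe set. Other probe sets of 3 mitosis members whose own representative did not pass were lower, Tacc3 by -0.40, Cdc20 by -0.35 and Hmmr by -0.30.

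**Figure D2:**
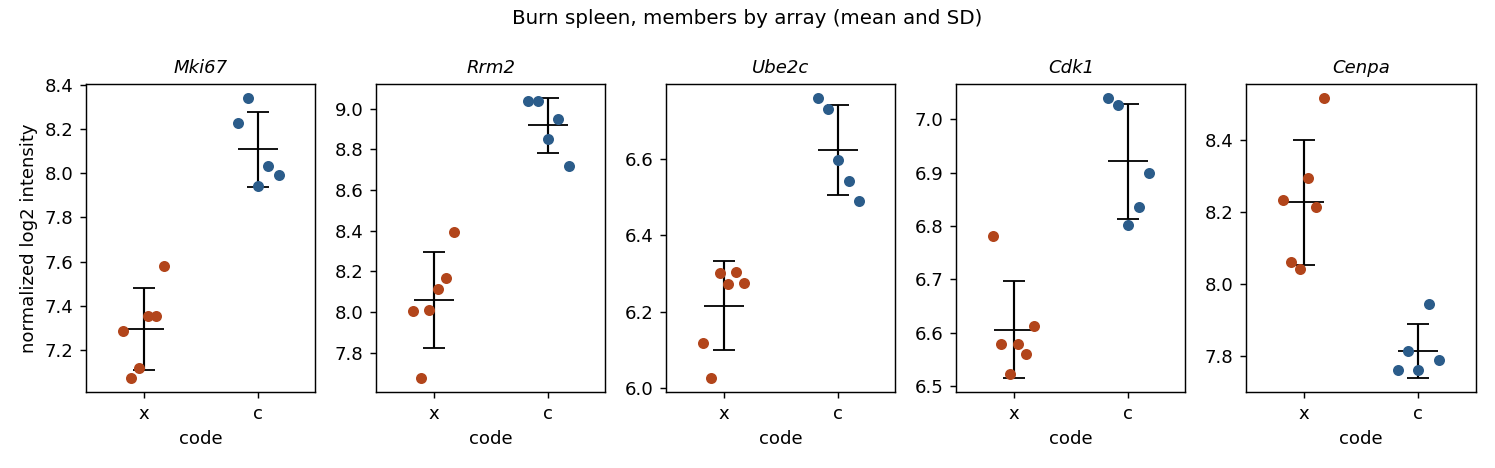
Normalized log2 intensity of 5 members in each burn spleen array (points; 6 x, 5 c), with the mean and SD as bars. Mki67, Rrm2, Ube2c and Cdk1 lie lower in all x arrays than in all c arrays, and Cenpa lies higher.

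The other cell cycle genes of a fixed list moved in part alongside in burn spleen. Of 19 further mitotic proteins tested, 9 were lower, among them Smc2 of condensin (-0.53), and 1 was higher (Kif23, 0.36). Of 25 further replication proteins, 4 were higher and none was lower, with Cdt1, the licensing factor that loads the Mcm ring, at 0.81 (adjusted p = 6.15e-06) and Pole2, a polymerase subunit, at 0.45. Over all 69 genes of the list 9 were higher and 14 lower. The kinase inhibitor Cdkn1a (p21) was higher by 0.85, Cdkn2d (p19) fell by 1.98 and the cyclin Ccnd1 fell by 0.96.

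Markers of other cell types moved in the same arrays. The T cell markers were higher in 4 of 8 and lower in none, with Cd28 at 1.30, and their summed intensity ran from 3556 to 4421 in x arrays, against 1700 to 3012 in c arrays. The B cell markers were lower in 6 of 7 (10067 to 11508 in x, 13086 to 14990 in c), NK markers in 4 of 5 (914 to 1156 in x, 1240 to 2227 in c) and red pulp macrophage markers in 5 of 5 (1376 to 1985 in x, 2471 to 4217 in c). Monocyte and macrophage markers were lower in 4 of 5 and higher in 1, Cd14 at 2.03 (2892 to 3508 in x, 3142 to 4430 in c), and immature neutrophil markers were lower in 2 of 8 (1899 to 3726 in x, 2651 to 5243 in c). Erythroid markers were lower in 3 of 7 tested (879 to 1225 in x, 1220 to 1579 in c), with Alas2, the first enzyme of erythroid heme synthesis, lower by -3.02. Their part in the lower mitosis genes was not tested. None of these markers was at the lowest value in all arrays.

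In trauma-hemorrhage blood every mitosis call was lower in x, and the replication calls went both ways. Of 19 replication members 4 were higher in x (Mcm4, Pcna, Mcm6 and Mcm5) and 6 were lower (Fen1, Rrm2, Tk1, Mcm3, Dut and Rfc4). Of 19 mitosis members none was higher and 8 were lower (Nusap1, Ube2c, Ccna2, Plk1, Hmmr, Ccnb2, Racgap1 and Cdk1). The share of lower calls over all genes tested was 32.8% and of higher calls 19.2%. The members' share of calls, 47.4%, was near the 52% of all genes tested.

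Mcm4, a subunit of the Mcm helicase, measured 7.74, 8.35 and 8.87 (lowest, median, highest) in the 11 x arrays, against 7.10, 7.35 and 8.04 in the 11 c arrays. Of the x arrays 10 lay above every c array, and the difference was 0.96 (SE 0.10, adjusted p = 4.15e-07), 1.95-fold. Pcna measured 8.82, 8.97 and 9.46 in x arrays, against 8.11, 8.24 and 9.01 in c arrays. The groups overlapped, with a difference of 0.71 (SE 0.10, adjusted p = 1.54e-05). Mcm6 measured 6.81, 7.11 and 7.53 in x arrays, against 6.50, 6.66 and 7.30 in c arrays, and rose by 0.38. The 2 highest c arrays of Pcna and Mcm6 were of letter E. Mcm3 and Mcm2, subunits of the same ring, did not rise: Mcm3 fell by 0.20, and Mcm2 fell by 0.44 at its second probe set while its representative did not pass. Fen1, the nuclease that trims Okazaki fragments, measured 9.29, 9.69 and 9.79 in x arrays, against 9.77, 10.05 and 10.24 in c arrays. It fell by 0.38 (SE 0.07, adjusted p = 0.000254), but by 0.077 (adjusted p = 0.198) in the deposited scaling.

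Nusap1, a microtubule-binding protein of the spindle, measured 8.80, 9.58 and 10.37 in x arrays, against 10.14, 10.64 and 10.95 in c arrays. Of the x arrays 10 lay below every c array, and the difference was -1.01 (SE 0.15, adjusted p = 1.37e-05). Ube2c measured 8.62, 9.62 and 10.27 in x arrays, against 9.83, 10.62 and 11.01 in c arrays, with a difference of -1.0 (SE 0.17, adjusted p = 5.66e-05). Ccna2 measured 7.33, 7.63 and 8.17 in x arrays, against 7.87, 8.10 and 8.42 in c arrays, with a difference of -0.49 (SE 0.08, adjusted p = 7.19e-05). Each of these pairs overlapped in 1 x array. The spindle kinase Plk1 fell by 0.38 and the spindle protein Hmmr by 0.31, and Mki67 did not pass.

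**Figure D3:**
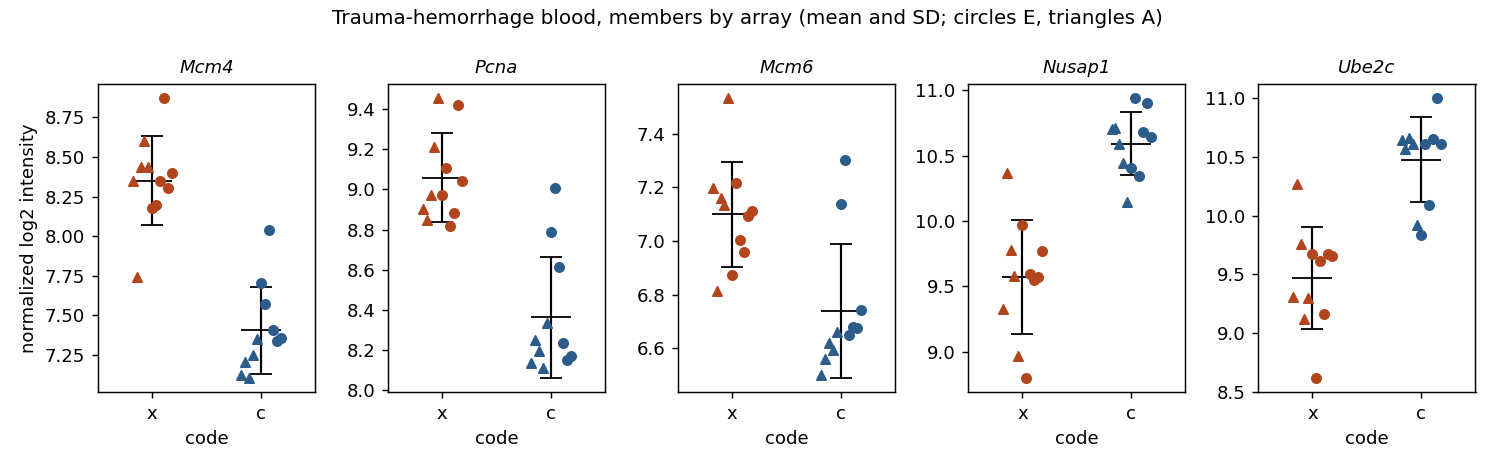
Normalized log2 intensity of 5 members in each trauma-hemorrhage blood array (circles letter E, triangles letter A; 11 x, 11 c), with the mean and SD as bars. Mcm4, Pcna and Mcm6 lie higher in x and Nusap1 and Ube2c lie lower.

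With the beta-actin ratio as a covariate no member was called in trauma-hemorrhage blood, and 26 of 15838 probe sets were called in all, so the code and the ratio cannot be told apart there. With that covariate the difference was 0.86 for Mcm4, 0.82 for Pcna, -0.41 for Nusap1, -0.45 for Ube2c and -0.06 for Fen1 (adjusted p = 0.139, 0.169, 0.684, 0.705 and 0.926). Because the ratio did not overlap between codes, these values cannot show which differences depend on it. The numbers in the titles were divided here into 2 runs, where the order of the groups starts again. The labels name no such runs. Within them the difference of Mcm4 was 0.67 in run 1 and 1.21 in run 2, and that of Pcna 0.42 and 0.97. That of Nusap1 was -0.99 and -1.03, and that of Ube2c -0.85 and -1.13. Run 1 alone gave 4 calls, beside 10.3% of all probe sets. Erythroid markers were lower in 4 of 8 tested (summed intensity 9667 to 16543 in x, 13562 to 16436 in c), immature neutrophil markers higher in 4 and lower in 2 of 8 (5650 to 31648 in x, 1542 to 5062 in c) and monocyte markers higher in 3 of 5 (5704 to 11851 in x, 1657 to 5074 in c). Ngp, a granule protein of immature neutrophils, was higher by 2.71. The part of these cells in the members' differences was not tested. Of the other cell cycle genes tested 11 of 66 were higher and 21 lower, with Cdkn1a at 0.62 and Cdc25b, the phosphatase that activates Cdk1, at -1.19.

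In burn blood 6 of the 7 calls were replication genes. Of 19 replication members 2 were higher (Prim2 and Chek1) and 4 were lower (Mcm7, Mcm5, Rfc4 and Rrm1), and of 19 mitosis members Cenpa alone was called, higher. Over all genes tested 7.14% were higher and 10.3% lower. On the deposited scaling the 7 calls split into 5 higher and 2 lower. Prim2, the large subunit of primase, which lays the primers of DNA synthesis, measured 7.31, 7.46 and 7.69 in the 9 x arrays, against 6.63, 6.96 and 7.05 in the 11 c arrays. No arrays overlapped, and the difference was 0.58 (SE 0.05, adjusted p = 3.33e-07), 0.63 in run 1 and 0.52 in run 2. Cenpa measured 7.82, 7.91 and 8.27 in x arrays, against 7.33, 7.56 and 7.78 in c arrays, without overlap. The difference was 0.37 (SE 0.06, adjusted p = 0.000147), 0.33 in run 1 and 0.41 in run 2, where it did not pass (adjusted p = 0.131).

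Chek1, the checkpoint kinase of stalled replication, measured 6.36, 6.60 and 6.74 in x arrays, against 6.17, 6.33 and 6.46 in c arrays. It rose by 0.24 (SE 0.04, adjusted p = 0.000198), with 7 of 9 x arrays above every c array. Mcm7 measured 8.50, 8.94 and 9.07 in x arrays, against 8.45, 9.23 and 9.44 in c arrays. It fell by 0.28 (SE 0.09, adjusted p = 0.0336), by 0.55 in letter A and by 0.017 in letter E, and it no longer passed in 11 of the 20 fits that left out 1 array. Without replicates 4 and 5 of code c, letter E, 13 of 38 members were called, 4 higher and 9 lower, against 26.8% of all probe sets. Ube2c differed by 0.39 and did not pass (adjusted p = 0.087). Among other cell cycle genes the inhibitors Cdkn1a (1.38) and Cdkn1b (0.52) and 4 of 6 antiproliferative genes, such as Btg1 (0.58), were higher, and Ccnd2 fell by 0.58. B cell markers were lower in 6 of 6 tested (summed intensity 3323 to 4647 in x, 4455 to 11304 in c) and mature neutrophil markers higher in 6 of 7 (20698 to 35380 in x, 5204 to 43880 in c), and their part in the members' differences was not tested.

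In LPS blood both classes held calls. Of 19 replication members 1 was higher (Rfc4) and 3 were lower (Pcna, Rrm2 and Mcm4), and of 19 mitosis members 2 were higher (Ube2c and Bub1b) and 3 were lower (Mad2l1, Top2a and Cdc20). Over all genes tested 13.2% were higher and 12.4% lower. Pcna measured 8.59, 8.86 and 9.28 in the 10 x arrays, against 9.01, 9.43 and 9.62 in the 12 c arrays. The groups overlapped, and the difference was -0.50 (SE 0.09, adjusted p = 0.000167), -0.76 in run 1 and -0.24 in run 2. Rrm2 measured 6.76, 7.12 and 7.27 in x arrays, against 7.13, 7.43 and 7.68 in c arrays. It fell by 0.32 (SE 0.06, adjusted p = 0.000483), while its second probe set differed by -0.03 and did not pass. Rfc4, a subunit of the clamp loader, measured 7.04, 7.11 and 7.33 in x arrays, against 6.79, 7.02 and 7.14 in c arrays, and rose by 0.16 (adjusted p = 0.0124).

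The anaphase enzyme Ube2c measured 9.54, 9.80 and 10.54 in LPS blood x arrays, against 8.97, 9.49 and 9.91 in c arrays. The overlap was wide, with 4 of 10 x arrays above every c array, and the difference was 0.39 (SE 0.12, adjusted p = 0.0233), 0.66 in run 1 and 0.13 in run 2. Mad2l1, of the spindle checkpoint, measured 6.80, 6.97 and 7.33 in x arrays, against 7.06, 7.26 and 7.40 in c arrays, and fell by 0.26 (adjusted p = 0.000746). Top2a measured 6.98, 7.20 and 7.66 in x arrays, against 7.30, 7.46 and 7.63 in c arrays, and fell by 0.22 (adjusted p = 0.0157). In run 2 alone 1 member was called, beside 4.39% of all probe sets. With the beta-actin ratio as a covariate 4 were called, all higher, beside 11% of all probe sets. None of the 6 members described in LPS blood passed with that covariate (adjusted p 0.101 to 0.602). Their differences with it were -0.73 for Pcna, -0.45 for Rrm2, 0.31 for Rfc4, 0.41 for Ube2c, -0.36 for Mad2l1 and -0.19 for Top2a. The ratio did not overlap between codes here either, so these values cannot show which differences depend on it. Mature neutrophil markers were higher in 7 of 7 (summed intensity 16056 to 39604 in x, 9771 to 35834 in c) and platelet markers in 5 of 7 (13836 to 17656 in x, 11212 to 16102 in c). The sums of immature neutrophil markers (1670 to 19523 in x, 1307 to 6865 in c) and erythroid markers (13200 to 17402 in x, 11136 to 14168 in c) overlapped. Among erythroid markers Alas2 differed by 0.28 and Tfrc by -0.36. The B cell marker Cd79b (-0.66) and the monocyte marker Csf1r (-0.63) were lower. The part of these cells was not tested. The licensing factor Cdt1 fell by 0.68 and Cdkn1b by 0.60, and Ccnd3 rose by 0.52.

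In LPS spleen Mcm4 was the 1 member called, and no mitosis member was. Over all genes tested 2.6% were higher and 1.13% lower. Mcm4 measured 9.37, 9.53 and 9.78 in the 6 x arrays, against 8.96, 9.20 and 9.35 in the 6 c arrays. All x arrays lay above all c arrays, and the difference was 0.40 (SE 0.08, adjusted p = 0.0183), 0.22 in run 1 and 0.58 in run 2, neither of which passed alone. Its second probe set differed by 0.39 and did not pass (adjusted p = 0.328). Without replicate 4 of the x arrays no member was called, beside 2.5% of all probe sets. Replicate 6 of the x arrays had the highest mean of both classes in the set, 8.21 over replication members, against 7.85 to 7.95 in the other x arrays and 7.87 to 8.0 in c arrays. Mki67 differed by 0.32 and did not pass, with 7.91 to 8.76 in x arrays against 7.46 to 8.12 in c arrays. Cdkn1a (0.73) and Myc (0.89) were higher and Ccnd1 fell by 0.60. Markers of mature and immature neutrophils were higher in 3 of 7 and 3 of 8. The summed intensity of immature neutrophil markers ran from 5145 to 8922 in x arrays, against 2225 to 4316 in c arrays. That of red pulp macrophage markers ran from 1918 to 3315 in x arrays, against 3802 to 4673 in c arrays, with Slc40a1 at -1.85. The sums of the other listed cell types overlapped between codes, and the part of these cells in the members' differences was not tested.

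In trauma-hemorrhage spleen the arrays of both codes spread widely in proliferation genes. Mki67 measured 7.43, 7.92, 8.0, 8.79 and 8.83 in the 5 x arrays, against 7.40 at the lowest and 8.75 at the highest of the 6 c arrays. Rrm2 measured 7.77, 7.87, 7.98, 9.08 and 9.09 in x arrays, against 8.04 to 9.34 in c arrays. Neither separated the codes, and the difference of Rrm2 was -0.35 (SE 0.28, adjusted p = 0.406). The SE of Top2a was 0.24 here and 0.11 in burn spleen. Of 19 replication members 2 were higher (Chek1 and Mcm4) and 3 were lower (Dut, Mcm7 and Pcna), and of 18 mitosis members 1 was higher (Nusap1) and 2 were lower (Racgap1 and Mad2l1). Over all genes tested 10.6% were higher and 18% lower. Without replicate 5 of the x arrays 5 members were called, 3 higher and 2 lower, beside 23.9% of all probe sets. In that fit Mad2l1 (-0.21) did not pass.

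**Figure D4:**
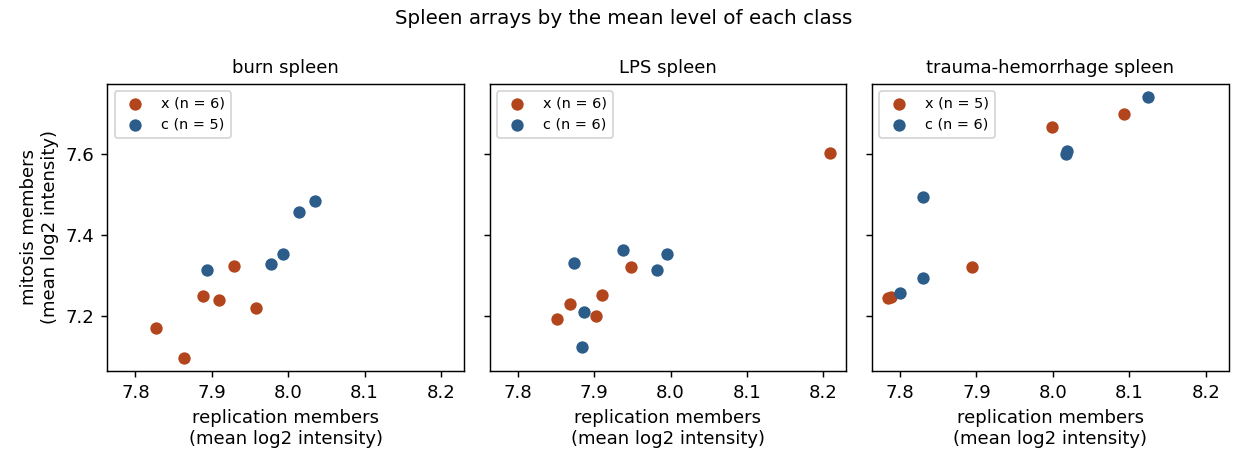
Mean log2 intensity of the mitosis members (vertical) against that of the replication members (horizontal) in each spleen array, x and c by colour, with levels not comparable between panels. In burn spleen x arrays lie at 7.10 to 7.32 over mitosis members, against 7.31 to 7.48 in c arrays; in trauma-hemorrhage spleen both codes spread over 7.24 to 7.74.

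Chek1 measured 6.24, 6.49, 6.54, 6.79 and 7.26 in trauma-hemorrhage spleen x arrays, against 5.66, 6.11 and 6.24 (lowest, median, highest) in c arrays. All x arrays lay above all c arrays, and the difference was 0.62 (SE 0.16, adjusted p = 0.00716). Mcm4 measured 9.07, 9.41, 9.52, 9.72 and 9.85 in x arrays, against 8.80, 9.01 and 9.10 in c arrays. Of the x arrays 4 lay above every c array, the difference was 0.52 (SE 0.12, adjusted p = 0.00354), and its second probe set rose by 0.45. Dut, the enzyme that keeps uracil out of DNA, measured 5.47, 5.69, 5.71, 5.88 and 6.08 in x arrays, against 5.88, 6.32 and 6.74 in c arrays, and fell by 0.60 (SE 0.15, adjusted p = 0.00721). These levels of Dut are dim. The mean used to filter and choose its probe set also covers burn spleen arrays, where it read 8.17 to 8.67. Mcm7 fell by 0.38 with no overlap, but other probe sets of it differed by -0.33, -0.08 and 0.07, of which the first passed.

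Nusap1 measured 7.52, 8.01, 8.02, 8.16 and 8.17 in trauma-hemorrhage spleen x arrays, against 6.80, 7.30 and 7.65 in c arrays. It rose by 0.70 (SE 0.15, adjusted p = 0.00251), with 4 of 5 x arrays above every c array. Mad2l1 measured 8.30, 8.30, 8.41, 8.45 and 8.46 in x arrays, against 8.53, 8.61 and 8.74 in c arrays, without overlap, and fell by 0.23 (adjusted p = 0.0182). Racgap1 measured 6.44, 6.64, 6.69, 6.69 and 6.74 in x arrays, against 6.62, 6.93 and 7.02 in c arrays, and fell by 0.25 (adjusted p = 0.0361) and by 0.60 at its second probe set. Its call was lost in 7 of the 11 fits that left out 1 array. Of 69 other cell cycle genes tested 6 were higher and 21 lower. The inhibitor Cdkn1a rose by 1.89, the oncoprotein gene Myc by 1.24 and the cyclin Ccnd2 by 1.13, and Smc4 (condensin), Rpa1 (single-strand DNA binding) and Ccng2 (an atypical cyclin) fell by 0.77, 0.82 and 0.92. T cell markers were lower in 7 of 8 (summed intensity 1998 to 2613 in x, 3178 to 4024 in c) and B cell markers in 5 of 7 (9619 to 12527 in x, 14098 to 16966 in c). The sums also did not overlap for red pulp macrophage markers (776 to 2197 in x, 2661 to 4055 in c). Those of immature neutrophil markers were higher in x (4303 to 6575 in x, 1399 to 3968 in c). The sums of the other listed cell types overlapped, and the part of these cells in the members' differences was not tested.

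The differences of x minus c were also compared between models and tissues, each by its own contrast. Burn spleen alone is labelled as leukocytes, and the lowest intensity was 9.68 in burn, 25.9 in LPS and 11.1 in trauma-hemorrhage spleen. In these contrasts the model or tissue cannot be told apart from the material and lowest intensity of a set. In blood the difference of trauma-hemorrhage minus that of burn was called in 17 of 38 members (background 43.2%) and minus that of LPS in 15 (background 47.2%), and that of LPS minus that of burn in 8 (background 19.9%). In trauma-hemorrhage minus LPS, Pcna differed by 1.21 and Mcm4 by 1.12, and in trauma-hemorrhage minus burn Ube2c differed by -1.39 and Nusap1 by -1.25. In spleen 2 members were called in LPS minus burn (background 9.67%), 4 in trauma-hemorrhage minus burn (background 24.2%) and 2 in trauma-hemorrhage minus LPS (background 13.1%). Mki67, lower in x in burn spleen, differed by 1.13 in LPS minus burn (adjusted p = 0.00562) and by 0.82 in trauma-hemorrhage minus burn (adjusted p = 0.031). Racgap1 differed by -0.48 in trauma-hemorrhage minus burn.

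Between tissues, with letter E arrays alone, 2 of 33 members were called for burn (background 3.28%), 2 for LPS (background 8.8%) and 8 for trauma-hemorrhage (background 26.4%). Rrm2 differed by 0.86 in burn blood minus burn spleen (adjusted p = 0.00758). In the letter E arrays of burn blood it measured 7.13 to 7.81 in x, against 7.04 to 7.74 in c. Its difference over both letters of burn blood was -0.05, which did not pass (adjusted p = 0.788). In trauma-hemorrhage blood minus spleen, Nusap1 differed by -1.81 (adjusted p = 1.35e-05), with opposite signs of x minus c in the 2 tissues. With limma 0 of 38 members were called for E minus A in burn, LPS and trauma-hemorrhage blood (2, 3 and 5 at an unadjusted p under 0.05, background 0%, 0% and 0.0304%). The dependence of x minus c on the letter was also called in 0 members (3, 5 and 4 at an unadjusted p under 0.05, background 0%).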

How the data were processed

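RNA from 98 samples was measured on one-colour Affymetrix arrays of 22690 probe sets. The authors deposited linear intensity values. The sources used here do not give their scaling. Probe sets were named from the platform's gene table, in which 20380 have 1 symbol, 691 several and 1555 none, and 64 control probe sets were left out. Where several probe sets carried a gene's symbol alone, the brightest on average in the tissue stood for it.

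Intensities were taken as log2(value + 16), quantile normalized within each tissue, and filtered at the 30th percentile of mean level. Fits used R 4.3.3 and limma 3.58.1 (lmFit and contrasts.fit, then eBayes with a trend), 1 set at a time, with both letters weighted equally in blood. Benjamini-Hochberg adjustment ran over all probe sets tested, with a threshold of 0.05. The fits were tested on simulated data, with normal noise and few probe sets changed. Changes of 0.3 were recovered in 66%, 68% and 50% of cases in burn, LPS and trauma-hemorrhage blood. In the spleen sets, in the same order, they were recovered in 30%, 40% and 24%. Changes of 0.6 were recovered in 83% (trauma-hemorrhage spleen) to 98% (trauma-hemorrhage blood). A small difference that did not pass may therefore have been missed. Contrasts between models used all groups of a tissue, and those between tissues used letter E alone.

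The members and lists were chosen with earlier results of these data known. Values by array are given for the 3 replication and 3 mitosis members with the largest difference among those called in each set, and further members are named to account for all. Other cell cycle genes and markers are named from those with the smallest p in each direction, up to 3 each. Some of these were left out, and others named were chosen after their values were seen. Markers left out include Il1r2 in burn blood (3.00) and burn spleen (2.70). They include Cd14 in trauma-hemorrhage blood (2.20), LPS spleen (2.28) and trauma-hemorrhage spleen (3.40). Among lower markers they include Cr2 in burn blood (-1.38) and burn spleen (-0.79), and Cd5 in trauma-hemorrhage spleen (-1.64). Alternatives covered the pseudocount, scaling, filter, array weights, title-number runs, letters, the beta-actin ratio and each array left out.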

Additional observations from a re-analysis of the deposited data

Results flagged for a closer look

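Of 126 checks for a single array far from the others of its group, 10 found one, and chance gives about 1 in 20. In LPS blood, replicate 2 of code c, letter E, had a mean over mitosis members of 7.29, against 7.38 to 7.41 in the others, and replicate 5 of code x, letter E, had Rfc4 at 7.33, against 7.04 to 7.09. In trauma-hemorrhage blood, code x, letter E, Mcm4 stood at 8.87 in replicate 4 (others 8.18 to 8.40) and Nusap1 at 8.80 in replicate 2 (others 9.55 to 9.97). In code c of that set, Ube2c stood at 9.92 in replicate 5 of letter A (others 10.57 to 10.66), and the mean over replication members at 7.61 in replicate 2 of letter E (others 7.39 to 7.45). In LPS spleen, replicate 6 of code x had the highest mean of its group in both classes, 8.21 over replication members (others 7.85 to 7.95) and 7.60 over mitosis members (others 7.19 to 7.32). In trauma-hemorrhage spleen, Nusap1 stood at 7.52 in replicate 2 of code x (others 8.01 to 8.17). In burn spleen, Cenpa stood at 7.94 in replicate 4 of code c (others 7.76 to 7.81).

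The difference x minus c itself differed between sets in 42 contrasts of named members, by limma with adjusted p-values over all probe sets tested. Each value is the difference in the first set minus that in the second. The model or tissue cannot be told apart there from the material and lowest intensity of a set.
For LPS blood minus burn blood, the members that differed included Pcna by -0.40 (adjusted p = 0.0278), Prim2 by -0.63 (adjusted p = 3.40e-08), Mad2l1 by -0.34 (adjusted p = 0.00765) and Rfc4 by 0.32 (adjusted p = 0.000335). In the same contrast stood Cenpa by -0.41 (adjusted p = 2.09e-05) and Top2a by -0.30 (adjusted p = 0.0444). For trauma-hemorrhage blood minus burn blood, the members that differed included Mcm4 by 0.81 (adjusted p = 1.28e-08), Nusap1 by -1.25 (adjusted p = 1.36e-06), Ccna2 by -0.63 (adjusted p = 5.60e-06) and Pcna by 0.81 (adjusted p = 3.18e-06). In the same contrast stood Prim2 by -0.56 (adjusted p = 1.89e-07), Fen1 by -0.29 (adjusted p = 0.0281), Mcm7 by 0.38 (adjusted p = 0.0266) and Chek1 by -0.27 (adjusted p = 0.0169). In the same contrast stood Cenpa by -0.40 (adjusted p = 1.33e-05) and Ube2c by -1.39 (adjusted p = 1.15e-06). For trauma-hemorrhage blood minus LPS blood, the members that differed included Mcm4 by 1.12 (adjusted p = 6.02e-13), Nusap1 by -1.22 (adjusted p = 9.37e-07), Ccna2 by -0.35 (adjusted p = 0.00549) and Pcna by 1.21 (adjusted p = 9.80e-11). In the same contrast stood Mad2l1 by 0.31 (adjusted p = 0.00585), Rfc4 by -0.32 (adjusted p = 9.45e-05), Fen1 by -0.36 (adjusted p = 0.00404) and Ube2c by -1.39 (adjusted p = 4.84e-07). For LPS spleen minus burn spleen, the members that differed were Mki67 by 1.13 (adjusted p = 0.00562) and Cenpa by -0.65 (adjusted p = 0.00181). For trauma-hemorrhage spleen minus burn spleen, the members that differed were Nusap1 by 0.91 (adjusted p = 9.50e-05), Mki67 by 0.82 (adjusted p = 0.031), Cenpa by -0.58 (adjusted p = 0.00295) and Racgap1 by -0.48 (adjusted p = 0.00238). For trauma-hemorrhage spleen minus LPS spleen, the members that differed were Nusap1 by 0.62 (adjusted p = 0.0101) and Chek1 by 0.65 (adjusted p = 0.0132). For burn blood minus burn spleen, with letter E alone, the members that differed were Prim2 by 0.47 (adjusted p = 0.0171) and Rrm2 by 0.86 (adjusted p = 0.00758). For LPS blood minus LPS spleen, with letter E alone, the members that differed were Mcm4 by -0.53 (adjusted p = 0.00317) and Pcna by -0.58 (adjusted p = 0.00729). For trauma-hemorrhage blood minus trauma-hemorrhage spleen, with letter E alone, the members that differed included Nusap1 by -1.81 (adjusted p = 1.35e-05), Pcna by 0.74 (adjusted p = 0.00606), Dut by 0.54 (adjusted p = 0.0354) and Fen1 by -0.52 (adjusted p = 0.0137). In the same contrast stood Chek1 by -0.54 (adjusted p = 0.0333) and Ube2c by -1.10 (adjusted p = 0.0092). Dut was read there with its spleen probe set.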

How the results depend on the processing

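The count of members called x minus c was within 1.5 times the value reported in 10 of 16 alternatives for burn blood, 11 of 15 for LPS blood, 12 of 15 for trauma-hemorrhage blood, 8 of 10 for burn spleen, 11 of 13 for LPS spleen and 10 of 10 for trauma-hemorrhage spleen. Percentages given here are the share of all probe sets called in the same fit. In burn blood the 7 calls (18%) became 4 with a filter at the 50th percentile (21.3%) and 13 with array weights (29.6%). They became 4 in title-number run 1 alone (11.1%) and 3 in letter E alone (2.53%), while letter A alone kept 7 (18.5%). Run 2 alone, with 1 x array of letter A, also moved the count. Without replicates 4 and 5 of code c, letter E, the calls numbered 13 (26.8%). In LPS blood the 9 calls (26.3%) became 1 in run 2 alone (4.39%) and 4 with the beta-actin ratio as a covariate (11%). They became 3 in letter A alone (7.04%) and 2 in letter E alone (15.8%). In trauma-hemorrhage blood the 18 calls (51.8%) became 4 in run 1 alone (10.3%) and 9 in letter E alone (21.5%). With the beta-actin ratio as a covariate they became 0 (0.164%). In burn spleen the 11 calls (17.6%) became 7 with that covariate (15.2%). With all groups of the tissue in 1 fit they became 6 (17.5%), and the lower mitosis calls numbered 2 in place of 6. In LPS spleen the 1 call (3.3%) was lost in run 1 alone (0 calls, 1.18%) and in run 2 alone (0 calls, 1.26%). The cause of these shifts was not tested.

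Leaving out 1 array at a time gave 4 to 9 calls in burn blood, 9 in each LPS blood fit and 14 to 18 in trauma-hemorrhage blood. It gave 6 to 12 in burn spleen, 0 to 1 in LPS spleen and 5 to 8 in trauma-hemorrhage spleen. The 4 calls in burn blood came without replicate 2 of code x, letter A, beside 15.9% of all probe sets. Over the 29 differences described by array, 321 of 369 other alternatives kept the direction and the call, 48 kept the direction alone and 0 reversed. No paired analysis was possible because the replicate numbers were given in accession order and pair no arrays. Title-number run as a block moved no count of calls where it could be fitted. Burn spleen and trauma-hemorrhage spleen held 1 run each, so no such block was possible there. The number of arrays limits the precision, and dim members sit near the lowest intensity.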
